A study of Mus musculus with 6 samples.

Results

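The genes described here are the proliferins Prl2c1, Prl2c2, Prl2c3, Prl2c4 and Prl2c5, the growth hormone receptor Ghr and the prolactin receptor Prlr, measured in mouse prostate cancer cells before and after stimulation with colony-stimulating factor 1 (CSF-1). They were taken as the probes that the array annotation names after 1 of these 7 genes, which gave 7 probes of 55681 on the array and 4 of 36163 gene names, since Prl2c2, Prl2c3 and Prl2c4 have no probe named after them. The genes were selected on their measured differences between unstimulated and CSF-1-stimulated arrays, so their own values are given as a description and without a test.

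N18-Fms cells, N18-CFMS in the sample labels, are 1 luciferase-transfected, neomycin-resistant subclone of the TRAMP C2H line, a line from a TRAMP mouse, which develops prostate adenocarcinoma from a transgene. They carry mouse c-fms, the gene of the CSF-1 receptor, from a retrovirus and were sorted for the receptor on the surface. All groups therefore share the luciferase vector, the transduced receptor and a medium with fetal bovine serum and dihydrotestosterone, and the study describes C2H cells and their subclones as secreting CSF-1 themselves, so the unstimulated cells were not free of ligand. RNA of unstimulated cells, which the labels also call untreated or vehicle, and of cells given recombinant mouse CSF-1 at 100 ng/mL for 24 h or 48 h was hybridized to single-color Agilent mouse arrays, 2 arrays per group from 2 independent experiments. The methods text gives 12 h and 24 h in place of the labelled times, which are used here.

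Values are normalized log2 signals, that is, the log2 of the deposited spot signal minus the log2 of the 75th percentile of the same array, so that a difference of 1 is a 2-fold change. Between 58.7% and 72.0% of spots were well above background on each array and 0 were saturated. The 24 h replicate 1 array lies on another slide than the other 5 arrays. Csf1r was at 4.88 and 5.13 in unstimulated cells, 5.12 and 5.34 at 24 h, and 4.96 and 4.90 at 48 h. The prostate identity of the cells was only partly visible: Trp63 was well above background in every array, whereas the epithelial gene Cdh1 was well above background in 0 of 6 arrays and Epcam in 1.

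Proliferins are secreted hormones of the prolactin family that mouse placental trophoblast giant cells make in quantity. They were first cloned from fibroblasts stimulated with serum, they act on endothelial cells, and they bind the mannose 6-phosphate receptor Igf2r rather than the prolactin receptor. Ghr and Prlr are single-pass receptors of the class I cytokine receptor family. On hormone binding they activate the tyrosine kinase JAK2, which phosphorylates STAT5, and STAT5 induces feedback inhibitors such as CISH and SOCS2. Prolactin and its receptor are known for growth effects on rodent prostate epithelium, and Ghr is the receptor through which growth hormone makes the liver produce insulin-like growth factor 1.

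The proliferin probes all lie on chromosome 13, at 2 separate places, and the transcripts are much alike, so what a probe can tell apart depends on its sequence. The 3 proliferin probes are shown for that reason, each 60 bases long and written in the transcript's direction, followed by the Prlr probe that gave a signal.
Prl2c1, A_55_P2183208: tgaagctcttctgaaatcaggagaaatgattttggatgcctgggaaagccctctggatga
Prl2c5, A_52_P619248: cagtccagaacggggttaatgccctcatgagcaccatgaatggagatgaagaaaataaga
Prl2c5, A_55_P2004752: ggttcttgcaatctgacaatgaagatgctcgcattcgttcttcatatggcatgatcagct
Prlr, A_52_P458279: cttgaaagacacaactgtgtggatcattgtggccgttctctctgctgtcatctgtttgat

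In the mm9 annotation of the files, A_55_P2183208 lies at chr13:27948312-27948371 on the plus strand and lists 1 RefSeq transcript, that of Prl2c1. A_52_P619248 spans an intron, from chr13:13282998-13283933 on the plus strand, and lists transcripts of both Prl2c5 and Prl2c1. A_55_P2004752 lies next to it at chr13:13283943-13284002 and lists 4 transcripts, of which 3 could be matched, to Prl2c2, Prl2c3 and Prl2c5. Only the first of the proliferin probes is therefore listed for a single gene. The other probes measure a mixture that cannot be divided among the paralogs, and Prl2c2 and Prl2c3 were seen only through the shared probe. Prl2c4 is given in the RefSeq table as a synonym of Prl2c3. The Ghr probes lie on the minus strand at chr15:3268107-3268166 (A_51_P499854) and chr15:3277543-3277602 (A_55_P2059412). Those of Prlr lie on the plus strand at chr15:10255629-10255688 (A_52_P458279) and chr15:10259066-10259125 (A_66_P139387).

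All 3 proliferin probes were higher in every CSF-1 array than in both unstimulated arrays, by about the same amount at 24 h and 48 h. Between 97.8% and 98.4% of tested probes had a difference no higher than theirs, and the probes were chosen on this difference. With so few arrays a group, separation of the arrays can arise by chance. The share of all probes separated in this way was not counted, here or for the genes below. Prl2c1 had a normalized log2 signal of 5.19 and 4.81 in unstimulated cells, 7.24 and 6.79 at 24 h, and 7.09 and 7.05 at 48 h. The groups did not overlap, and the lowest stimulated array stood well clear of the higher unstimulated one. The mean rose from 5.00 ± 0.28 (SD, n = 2) to 7.02 ± 0.32 at 24 h and 7.07 ± 0.032 at 48 h, a log2 difference of 2.02 and 2.07 with a standard error of 0.21 for each. As folds these are 4.05 at 24 h and 4.2 at 48 h. In deposited units, before scaling between arrays, the Prl2c1 spot read 20160 and 17080 in unstimulated cells and between 66190 and 86610 in the stimulated ones.

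The probe A_52_P619248, listed for Prl2c5 and Prl2c1, was at 6.08 and 5.77 in unstimulated cells, 7.83 and 7.45 at 24 h, and 7.74 and 7.69 at 48 h. Its log2 difference from unstimulated cells was 1.71 at 24 h and 1.79 at 48 h, with a standard error of 0.18 for each, or 3.28-fold and 3.45-fold. The probe A_55_P2004752, listed for Prl2c5, Prl2c2 and Prl2c3, was at 6.4 and 6 in unstimulated cells, 8.07 and 7.86 at 24 h, and 8.06 and 8.07 at 48 h. Its log2 difference was 1.76 at 24 h and 1.87 at 48 h with a standard error of 0.17, or 3.4-fold and 3.65-fold. Again no stimulated array reached down to an unstimulated one, and the arrays of 48 h lay within or beside the range of the arrays of 24 h.

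The spread between replicates had a common form. In each of these 3 probes unstimulated replicate 1 was above replicate 2 and 24 h replicate 1 was above replicate 2, while the 48 h arrays differed by at most 0.05. Within an array the pair of Prl2c5 probes kept almost the same distance, between -0.40 and -0.22 on the log2 scale, a range of 0.18 over 6 arrays. The Prl2c1 probe minus A_55_P2004752 ran from -1.20 and -1.19 in unstimulated cells to between -1.06 and -0.83 in the 4 stimulated arrays, and Prl2c1 minus A_52_P619248 from -0.97 and -0.89 to between -0.66 and -0.59. The Prl2c1 probe thus moved slightly more than the shared probes in every stimulated array. From 24 h to 48 h the proliferin probes moved by 0.05, 0.07 and 0.11, less than their pooled replicate SDs of 0.24, 0.20 and 0.19.

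**Figure D1:**
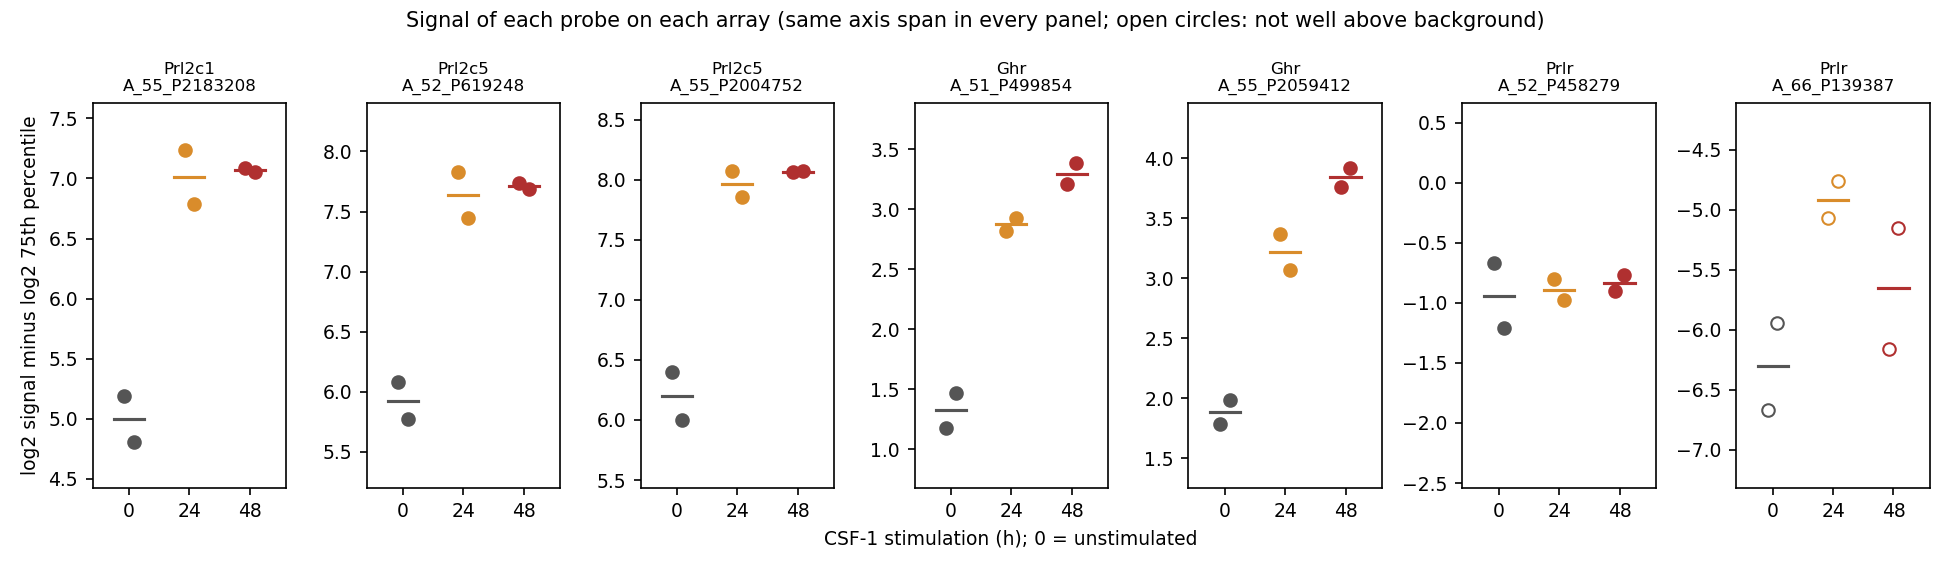
Normalized log2 signal (vertical axis, log2 of the signal minus log2 of the array's 75th percentile) of the 7 probes on each of the 6 arrays, against the hours of CSF-1 stimulation on the horizontal axis. Points are arrays, lines are means of 2 arrays, and every panel spans the same number of log2 units at its own height. The proliferin and Ghr probes have every stimulated array above both unstimulated ones, the Prlr probe A_52_P458279 has overlapping groups, and the open circles of A_66_P139387 are not well above background.

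Ghr was higher with CSF-1 at both times, and higher at 48 h than at 24 h on both of its probes. The files list these probes for different Ghr transcripts. A_51_P499854 was at 1.18 and 1.47 in unstimulated cells, 2.82 and 2.93 at 24 h, and 3.21 and 3.38 at 48 h. A_55_P2059412 was at 1.79 and 1.99 in unstimulated cells, 3.37 and 3.07 at 24 h, and 3.76 and 3.92 at 48 h. On each probe the 3 groups were stacked without overlap, with unstimulated cells lowest and the 48 h arrays highest. The share of all probes stacked in this way was not counted. Between 96.3% and 98.2% of tested probes had a difference from unstimulated cells no higher than those of the Ghr probes.

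For A_51_P499854 the log2 difference from unstimulated cells was 1.55 at 24 h and 1.97 at 48 h, with a standard error of 0.15, or 2.93-fold and 3.91-fold. For A_55_P2059412 it was 1.33 and 1.95 with a standard error of 0.16, or 2.52-fold and 3.85-fold. From 24 h to 48 h the first probe differed by 0.42 and the second by 0.62, or 1.33-fold and 1.53-fold, beside pooled replicate SDs of 0.14 and 0.16. The distance between the 2 Ghr probes stayed between -0.61 and -0.52 in 5 arrays and was -0.14 on 24 h replicate 2, so the probes disagree most on that array.

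Prlr did not follow Ghr. A_52_P458279, which was well above background in all 6 arrays, was at -0.67 and -1.21 in unstimulated cells, -0.80 and -0.98 at 24 h, and -0.90 and -0.77 at 48 h. All 4 stimulated arrays fell between the 2 unstimulated ones. The log2 difference was 0.05 at 24 h and 0.11 at 48 h, with a standard error of 0.21 for each and a pooled replicate SD of 0.24. The further Prlr probe, A_66_P139387, read between 5.391 and 22.05 signal units and was well above background in 0 of 6 arrays, and no fold is given for it.

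**Figure D2:**
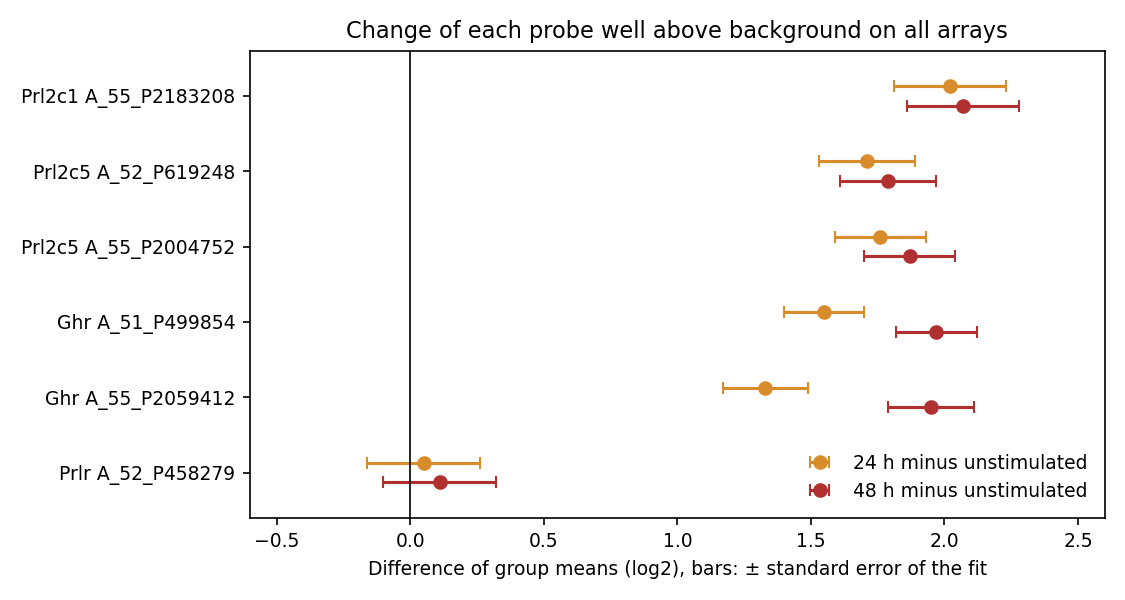
Difference of group means from unstimulated cells (horizontal axis, log2) at 24 h and 48 h for the 6 probes that were well above background on all arrays, with bars of ± 1 standard error from the fit over 6 arrays. The proliferin probes lie between 1.71 and 2.07 at both times, the Ghr probes between 1.33 and 1.55 at 24 h and at 1.95 and 1.97 at 48 h, and Prlr beside 0.

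Over all genes, limma called 14% of the 24648 tested at an adjusted p-value under 0.05 at each time. Higher calls made up 8.02% of genes tested at 24 h and 6.58% at 48 h. With 4 genes having a probe, Prl2c1, Prl2c5 and Ghr were among the higher calls at both times and Prlr was not called; the comparison is the one that led to their choice, so the count is only a description. At 24 h the split of calls was 1977 higher and 1477 lower, and it depended on the scaling: of the calls, 24.4% were higher after median centring and 47.2% and 45.1% after normexp background correction with the percentile shift or with quantile normalization. Median centring shifted the median of all genes by -0.284 at 24 h and -0.10 at 48 h, and it gave proliferin and Ghr differences between 1.05 and 1.73 at 24 h, with no change of sign. Between 48 h and 24 h limma called 0 genes, or 0%, with 3357 at an unadjusted p under 0.05, and the test named in the methods also called 0 after adjustment, with 2585 unadjusted.

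Promoter windows of RefSeq genes on build GRCm38.p6, which is not the build of the probe positions, were found for Prl2c3, Prl2c5, Ghr and Prlr. The 250 bases before the starts of Prl2c3 (chr13:12800080-12800329, minus strand) and Prl2c5 (chr13:13182466-13182715, plus strand) are printed because both genes are listed for the shared probe A_55_P2004752, whose signal cannot be divided between them. Capitals mark matches on either strand to TGANTCA, the AP-1 motif, TTCNNNGAA, the STAT motif, or AGATAA, which GATA factors bind, none of which overlapped another.
Prl2c3: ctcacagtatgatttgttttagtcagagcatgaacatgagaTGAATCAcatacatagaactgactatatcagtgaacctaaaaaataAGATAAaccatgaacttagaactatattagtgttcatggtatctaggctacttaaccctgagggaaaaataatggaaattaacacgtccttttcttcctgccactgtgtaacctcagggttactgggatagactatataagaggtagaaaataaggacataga
Prl2c5: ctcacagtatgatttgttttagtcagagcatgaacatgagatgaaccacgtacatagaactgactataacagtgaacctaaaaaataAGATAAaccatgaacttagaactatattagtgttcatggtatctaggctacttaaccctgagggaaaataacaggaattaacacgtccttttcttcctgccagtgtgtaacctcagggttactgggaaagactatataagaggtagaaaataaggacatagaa

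The windows aligned with 241 identical columns of 251, or 96%, with 8 substitutions and 2 gap columns. Counted from 1 at the 5′ end of the Prl2c3 window, the substitution T46C falls inside the AP-1 match of Prl2c3, which lies 209 bases before the start, and Prl2c5 has no match to these letters there. Both windows hold AGATAA 163 bases before the start. In the full windows of 300 bases, Prl2c3 also has TTCCCGGAA 25 bases after the start. Ghr has 2 windows, of which 1 holds TGAATCA 34 bases before the start, and Prlr has 3, of which 1 holds TTCTAGGAA 110 bases before the start and another TGAGTCA 20 bases before it. Among 32851 promoter windows of that length, 7.81% hold TGANTCA, 8.3% TTCNNNGAA and 11.2% AGATAA. A match of letters does not show that a factor binds.

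The other hormones of the family mostly gave no signal. Of 23 further prolactin and growth hormone genes, 22 had a probe and 7 were bright enough in some group to be tested, and growth hormone (Gh) and prolactin (Prl) themselves were well above background in 0 of 6 arrays. Among the 7, limma called 0 higher at either time, beside 8.02% at 24 h and 6.58% at 48 h over all genes. It called 2 lower at 24 h and 0 lower at 48 h, beside 5.99% and 7.38% over all genes. At an unadjusted p under 0.05 there were 1 higher and 2 lower at 24 h and 0 higher and 2 lower at 48 h. The 2 were the placental lactogen genes Prl3d1 and Prl3d2, close paralogs whose probes may share transcripts. Prl3d1, on its brightest probe, was at 1.22 and 1.61 in unstimulated cells, 0.65 and 0.80 at 24 h and 0.80 and 0.83 at 48 h. Its log2 difference was -0.69 (adjusted p = 0.0496) and then -0.60 (adjusted p = 0.0682). Limma's fit of single probes gave its 24 h difference an adjusted p of 0.0547. A further Prl3d1 probe, A_66_P115038, read between -6.87 and -3.93, was well above background in 1 of 6 arrays and was not tested. Prl3d2 was at -0.35 and -0.19, then -1.25 and -0.96, then -1.02 and -0.75, a difference of -0.83 (adjusted p = 0.0318) and -0.61 (adjusted p = 0.0657). On the tested probes both genes were thus lower in all 4 stimulated arrays than in either unstimulated one, the opposite side from the proliferins. With 1 array left out, 1 lower call was left without 48 h replicate 2 and 0 without any other array. Prl3b1, a further placental lactogen, differed by -0.06 and -0.19 and was not called.

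Trophoblast giant cells are the normal source of proliferin. Of 10 listed trophoblast markers, not all specific to giant cells, 5 could be tested here. Hand1 and Ctsq, together with Tpbpa, Ascl2 and Cdx2, which mark other trophoblast cells, were well above background in 0 of 6 arrays. The placental lactogens Prl3d1 and Prl3b1, classic giant cell products, were well above background in every array. For Prl3d1 this holds on its brightest probe only, and its further probe was well above background in 1 of 6 arrays. Gcm1 and Plet1, which mark other trophoblast cells, were well above background in every array, and Eomes, which also does, in all but 1 unstimulated array. The list was thus partly present, and of the genes tested only the placental lactogens are giant cell products. The mean level of the tested markers lay at -1.03 and -0.74 in unstimulated cells and between -0.94 and -0.56 in stimulated ones, with Plet1 called higher and Prl3d1 lower at 24 h and 0 markers called at 48 h. Of 7 tested macrophage markers, Cd14 and the mannose receptor Mrc1 were called higher at both times and 0 were lower, and the mean level lay at -0.21 and -0.18 in unstimulated cells, 0.74 and 0.59 at 24 h and 0.31 and 0.20 at 48 h. Mrc1 alone differed by 4.27 and 3.56, against list medians of 0.57 and 0.15, and at 48 h Cd68 and Itgam differed by -0.51 and -0.65 without being called. Lyz2 and Cd163 were well above background in 0 of 6 arrays. The higher calls were 28.6% of the tested macrophage markers at each time, beside 8.02% at 24 h and 6.58% at 48 h over all genes. Of 6 tested prostate epithelial markers, keratin 8 (Krt8) was called higher at 48 h, and the list's mean level was -1.73 and -1.49 before and between -1.28 and -1.12 after stimulation. The part of these genes' cell types in the values of the proliferins and Ghr was not tested.

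Around the receptors, 68 of 93 listed genes could be tested. At 24 h limma called 14 higher and 10 lower, and at 48 h 15 higher and 6 lower, with 13 higher and 5 lower at both times. That is 20.6% higher and 14.7% lower at 24 h, beside 8.02% and 5.99% over all genes, and 22.1% and 8.82% at 48 h, beside 6.58% and 7.38%. The median log2 difference of the listed genes was 0.13 at 24 h and 0.01 at 48 h, beside 0.037 and -0.044 over all genes. Calls fell with 1 array left out, as they did over all genes, where each such fit has fewer degrees of freedom. From 24 at 24 h, the count became 10 and 9 without unstimulated replicate 1 or 2, 14 without 24 h replicate 1, the array on the other slide, and 5 without 24 h replicate 2. From 21 at 48 h, it became 6 without either unstimulated array, 11 without 24 h replicate 2, 6 without 48 h replicate 1 and 9 without 48 h replicate 2.

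**Figure D3:**
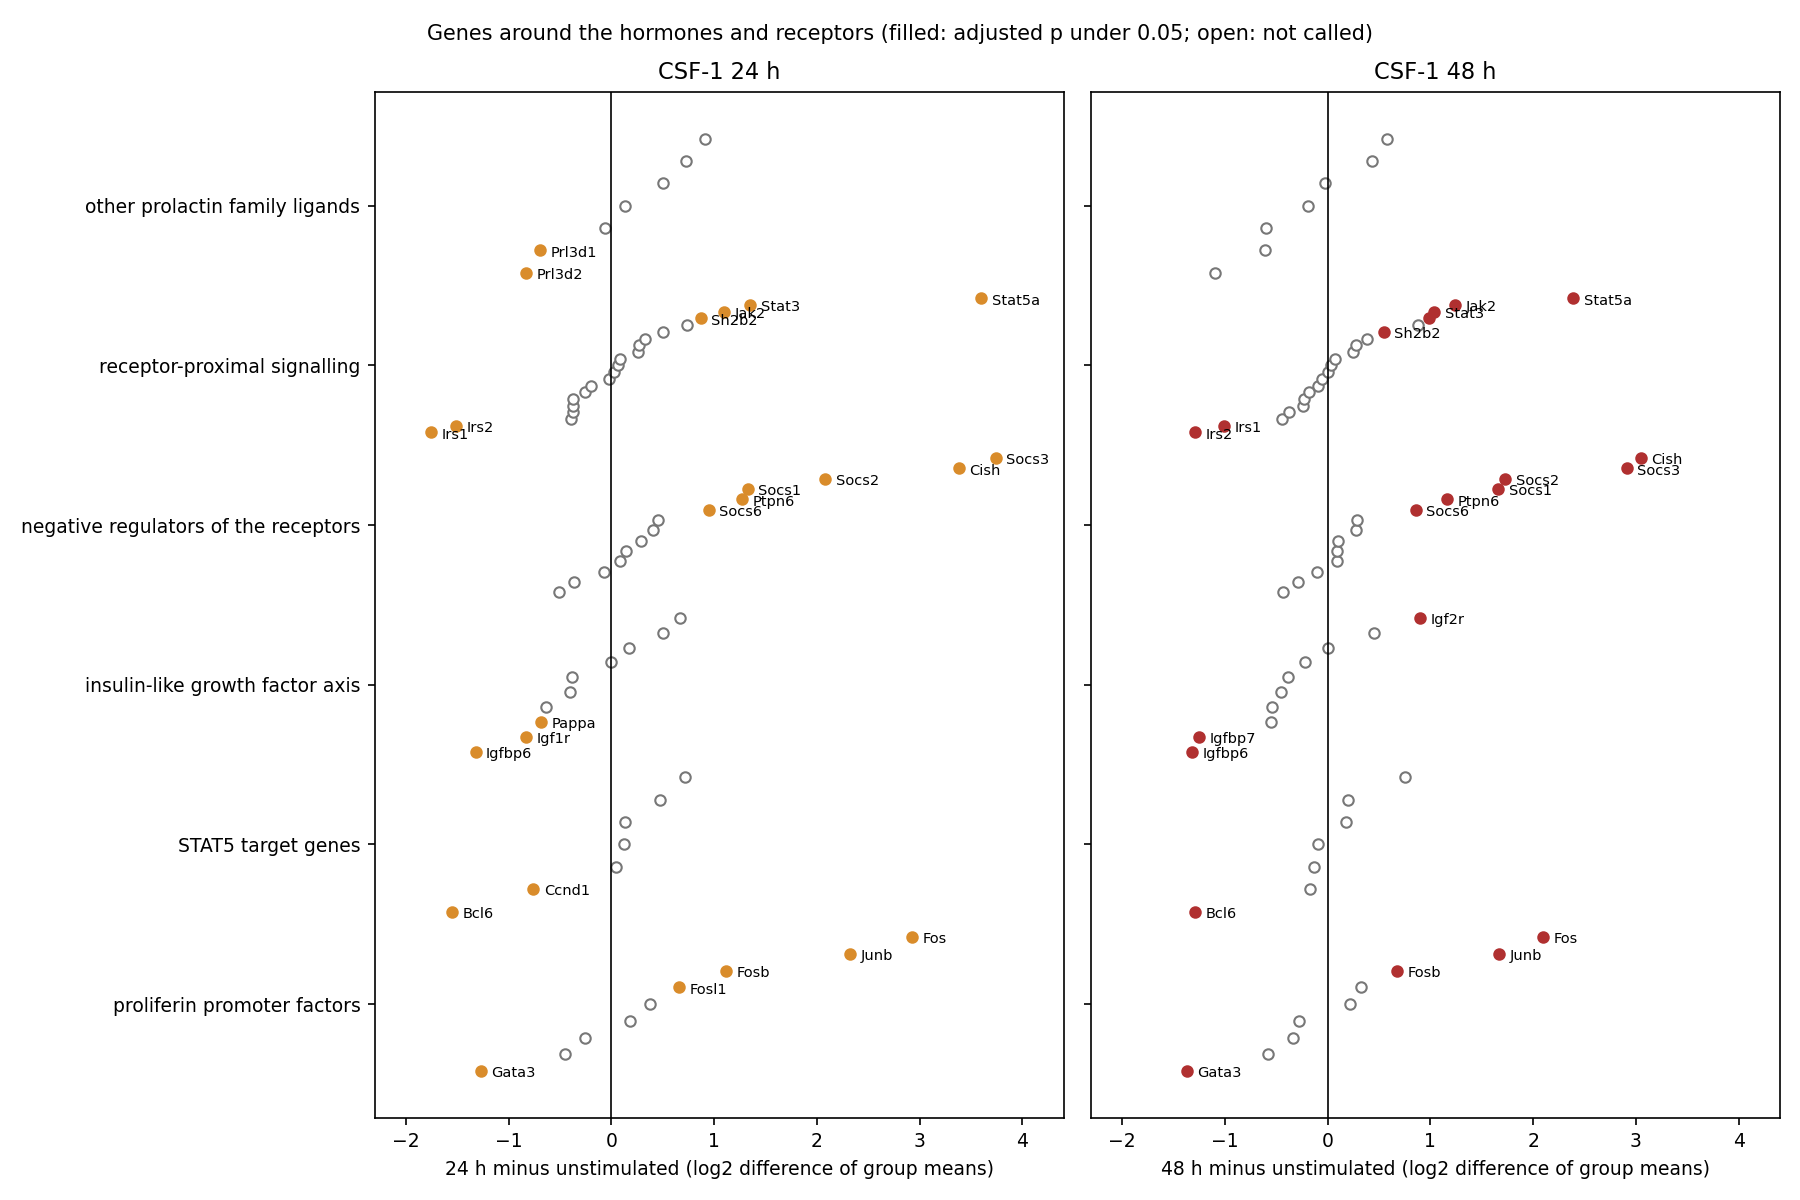
Log2 difference of group means from unstimulated cells (horizontal axis) for the 68 tested genes of the 6 lists, at 24 h (left) and 48 h (right), ordered by size within each list. Filled points passed an adjusted p under 0.05 in limma and carry their names, but for 1 unlabelled at 48 h, and open points did not. The negative regulators have 6 filled points at each time, all to the right of 0, and the further prolactin family hormones have none to the right.

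The kinase and the transcription factors that Ghr and Prlr act through moved unequally. Among 21 genes of receptor-proximal signalling, 4 were higher and 2 lower at 24 h, and 5 higher and 2 lower at 48 h. The higher shares were 19% and 23.8%, beside 8.02% and 6.58% over all genes. The lower share was 9.52% at each time, beside 5.99% and 7.38%. Stat5a, 1 of the 2 STAT5 genes, was at -3.61 and -3.52 in unstimulated cells, 0.00 and 0.07 at 24 h and -1.47 and -0.89 at 48 h. That is a log2 difference of 3.6 ± 0.205 (SE) at 24 h (adjusted p = 0.00176) and 2.39 at 48 h (adjusted p = 0.00393). Stat5b, its close paralog, was at 1.02 and 1.05, then 1.17 and 1.44, then 1.03 and 0.86, and differed by 0.27 (adjusted p = 0.256) and -0.09 (adjusted p = 0.711). Of these genes, then, Stat5a passed the test and Stat5b did not, and the difference between them was not tested.

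Jak2, the kinase bound to both receptors, was at 2.47 and 2.64 in unstimulated cells, 3.56 and 3.75 at 24 h and 3.67 and 3.93 at 48 h. Its log2 difference was 1.1 ± 0.148 (SE) at 24 h (adjusted p = 0.0121) and 1.24 at 48 h (adjusted p = 0.00921). Stat3 rose by 1.35 at 24 h (adjusted p = 0.0129) and 1.04 at 48 h (adjusted p = 0.0256), and the adaptor Sh2b2 by 0.87 and 0.55. The insulin receptor substrates, which growth hormone signalling also uses, went the other way. Irs1 was at 2.97 and 3.11 in unstimulated cells, 1.27 and 1.31 at 24 h and 1.98 and 2.07 at 48 h, a log2 difference of -1.75 (adjusted p = 0.00244) and -1.01 (adjusted p = 0.00782). Irs2 differed by -1.51 (adjusted p = 0.0107) and -1.29 (adjusted p = 0.0168). For all of these the 4 stimulated arrays lay on 1 side of both unstimulated ones, and the share of all genes that do so was not counted.

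Of the 6 calls of this list at 24 h, 2 were left without unstimulated replicate 1 or 24 h replicate 2, 3 without unstimulated replicate 2 and 4 without 24 h replicate 1. Of the 7 at 48 h, between 1 and 4 were left: 1 without unstimulated replicate 2 or 48 h replicate 1, 2 without unstimulated replicate 1 or 48 h replicate 2, and 4 without either 24 h array. The calls of Stat5a at both times and of Irs1 at 24 h held with any 1 array left out. Jak2 lost its 24 h call without either unstimulated array or 24 h replicate 2, with an adjusted p of up to 0.0867, and its 48 h call without either unstimulated array or either 48 h array, up to 0.0637. Stat3 lost its 48 h call without any of the 6 arrays, up to 0.115, and its 24 h call without unstimulated replicate 1 or either 24 h array, up to 0.0901. Irs1 lost its 48 h call without unstimulated replicate 2 or 48 h replicate 1, up to 0.078. Irs2 lost its 24 h call without either unstimulated array or 24 h replicate 2, up to 0.0723, and its 48 h call without either unstimulated array or either 48 h array, up to 0.119.

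**Figure D4:**
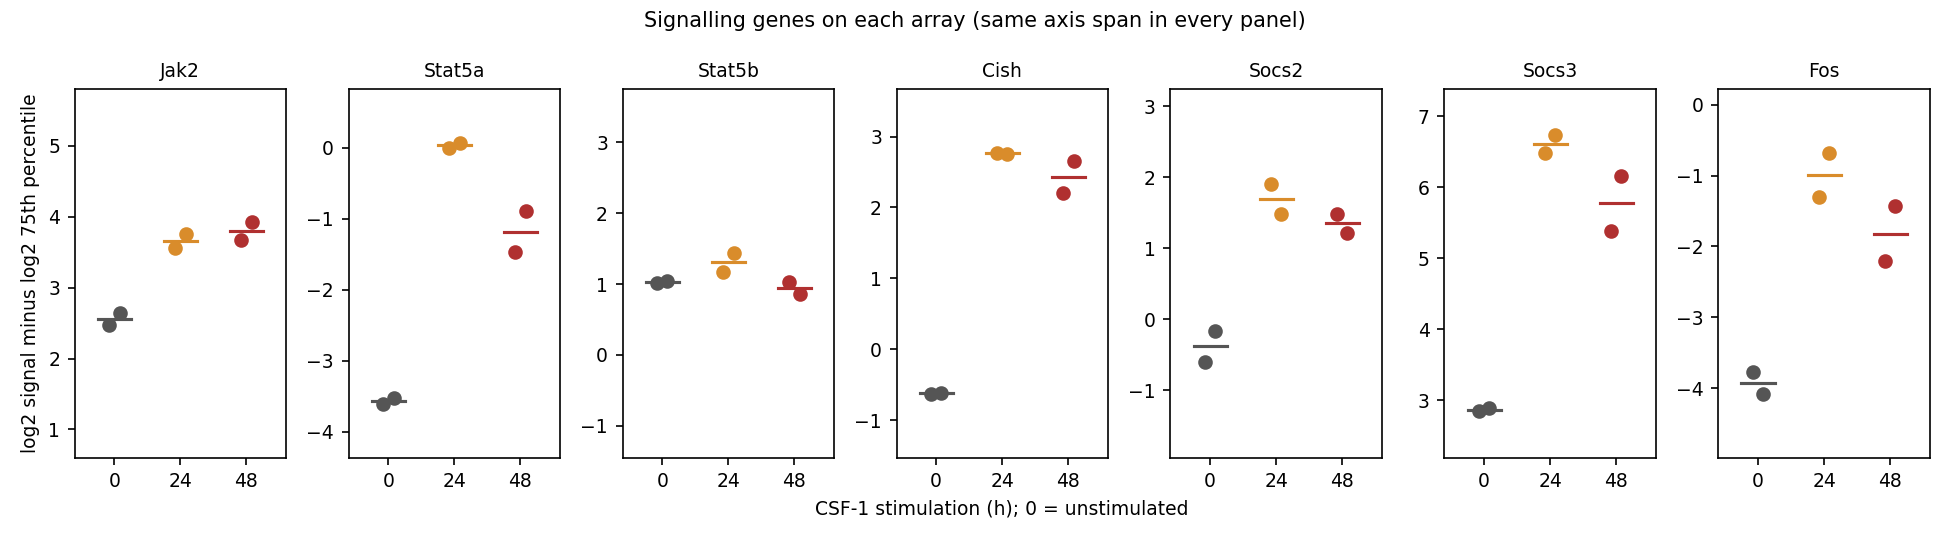
Normalized log2 signal (vertical axis) of Jak2, Stat5a, Stat5b, Cish, Socs2, Socs3 and Fos on each of the 6 arrays, against the hours of CSF-1 stimulation. Points are arrays and lines are means of 2 arrays, and every panel spans the same number of log2 units. All genes but Stat5b have the 4 stimulated arrays above both unstimulated arrays, and the 24 h mean of Stat5a and Fos lies above the 48 h mean.

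Among the inhibitors of the receptors, Cish and 4 Socs genes were called higher together with 1 phosphatase, and the other 8 were not called. Of 14 negative regulators tested, 6 were higher and 0 lower at each time, with the same 6 genes called at both, and 2 and 1 lower at an unadjusted p under 0.05. The higher share was 42.9% at each time, beside 8.02% and 6.58% over all genes, where 5.99% and 7.38% were lower. The list's median log2 difference was 0.43 at 24 h and 0.29 at 48 h. Cish, which blocks STAT5 docking, was at -0.63 and -0.61 in unstimulated cells, 2.77 and 2.76 at 24 h and 2.20 and 2.66 at 48 h, a log2 difference of 3.38 ± 0.173 (SE) at 24 h (adjusted p = 0.00145) and 3.05 at 48 h (adjusted p = 0.00142). Socs2, the main brake on the growth hormone receptor, was at -0.61 and -0.16, then 1.90 and 1.48, then 1.48 and 1.22, a difference of 2.08 (adjusted p = 0.00739) and 1.73 (adjusted p = 0.0115), and its 3 probes gave between 1.97 and 2.18 at 24 h. Socs3 was at 2.84 and 2.89, then 6.48 and 6.73, then 5.39 and 6.16, a difference of 3.74 (adjusted p = 0.0029) and 2.91 (adjusted p = 0.00459). All 3 genes were thus far higher in each stimulated array than before stimulation.

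The other 3 were Socs1, by 1.33 and 1.66, Socs6, by 0.95 and 0.86, and the phosphatase Ptpn6, by 1.27 and 1.16. Cish and Socs3 kept their calls with any 1 array left out. Socs2 lost its 24 h call without 24 h replicate 2 (adjusted p = 0.0513) and its 48 h call without unstimulated replicate 1 or 48 h replicate 1, up to 0.0956. The count of 6 fell to 3 at 24 h without unstimulated replicate 2 and to 2 without 24 h replicate 2. At 48 h it fell to 2 without unstimulated replicate 1 and to 3 without unstimulated replicate 2 or 48 h replicate 1. Ptpn2, Btrc and Socs7, with differences between -0.51 and -0.07 on the log2 scale, were not called.

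The insulin-like growth factor axis, which growth hormone drives in liver and to which Igf2r belongs, went partly the other way. Of 10 genes tested of 13 listed, limma called 0 higher (2 at an unadjusted p under 0.05) and 3 lower at 24 h, and 1 higher and 2 lower at 48 h. Over all genes, 8.02% were higher and 5.99% lower at 24 h, and 6.58% higher and 7.38% lower at 48 h. Igf2r, which binds proliferin, was at 0.32 and 0.74 in unstimulated cells, 1.15 and 1.26 at 24 h and 1.24 and 1.61 at 48 h. It differed by 0.67 at 24 h (adjusted p = 0.0871) and by 0.90 at 48 h (adjusted p = 0.0448), and that call was lost without any of the 6 arrays, with an adjusted p of up to 0.168, and after median centring (adjusted p = 0.0879). At 24 h Igf2r was called with the replicate number as a block (adjusted p = 0.0395), with an intensity trend (0.0309) and after normexp correction (0.0386 and 0.0247). Igf1, on its brightest probe, was at 3.91 and 3.74, then 3.88 and 3.78, then 3.82 and 3.84, with a difference of 0.00 at both times. Its 5 probes disagreed: their 24 h differences ran from -1.64 to 0.11, and the lowest came from a dim probe that was well above background in 3 of 6 arrays. At 48 h they ran from -1.03 to 0.00. A_55_P2031631 and A_55_P2085984, well above background in every array, then differed by -0.45 and -0.44. Limma's fit of single probes gave these an adjusted p of 0.0997 and 0.0878.

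Igf1r differed by -0.83 at 24 h (adjusted p = 0.0226) and -0.38 at 48 h (adjusted p = 0.144), and its 24 h call was lost without any of the 6 arrays, up to 0.12. Igfbp6, a binding protein that prefers IGF2, was at 5.14 and 5.08 in unstimulated cells, 3.78 and 3.79 at 24 h and 3.83 and 3.75 at 48 h. It fell by 1.32 on the log2 scale at 24 h (adjusted p = 0.00365) and at 48 h (adjusted p = 0.00324), and the call was lost at 24 h without 24 h replicate 2 (adjusted p = 0.0513). The further lower calls were Pappa, a protease that cuts binding proteins, at 24 h and Igfbp7 at 48 h. With 1 array left out the 3 lower calls at 24 h fell to 0 without 24 h replicate 2 and to 1 without any other array. At 48 h the 2 lower calls fell to 1 without any array but 24 h replicate 1, and the higher call to 0 without any array.

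Of 13 further genes listed as STAT5 targets, 7 could be tested, and limma called 0 higher at either time, beside 8.02% and 6.58% over all genes, with 1 higher at each time at an unadjusted p under 0.05. Cish and Socs2, which are also STAT5 targets and were called higher, are counted with the negative regulators. The milk protein genes Csn1s1, Csn1s2a and Csn2, the mammary factor Elf5 and Tnfsf11 were well above background in 0 of 6 arrays. The milk protein genes Csn3 and Lalba were well above background in every array and differed by 0.12 and 0.13 at 24 h, and Wap, well above background in 3 of 6 arrays, by 0.72 at 24 h (adjusted p = 0.0529). Bcl6, a repressor that STAT5 is known to lower, was at 0.67 and 0.80 in unstimulated cells, -0.75 and -0.88 at 24 h and -0.56 at both 48 h arrays, and differed by -1.55 (adjusted p = 0.00309) and then -1.29 (adjusted p = 0.00427), with the 48 h call lost without 48 h replicate 1 (adjusted p = 0.0522). Cyclin D1, Ccnd1, fell by 0.76 on the log2 scale at 24 h (adjusted p = 0.0292) and was not called at 48 h, where it differed by -0.17. Of the 2 lower calls at 24 h, 1 was left without any array but 48 h replicate 2, and at 48 h 0 without 48 h replicate 1. Pim1 and Bcl2l1, a kinase and a survival factor, were not called, with differences of 0.47 and 0.05 at 24 h.

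Factors known from work on proliferin promoters are AP-1, a dimer of Fos and Jun proteins, and in trophoblast GATA2 and GATA3. Of 9 such genes, all tested, 4 were higher and 1 lower at 24 h, and 3 were higher and 1 lower at 48 h. The higher shares were 44.4% and 33.3%, beside 8.02% and 6.58% over all genes. The lower share was 11.1% at each time, beside 5.99% and 7.38%. Fos was at -3.77 and -4.08 in unstimulated cells, -1.30 and -0.68 at 24 h and -2.21 and -1.43 at 48 h, a log2 difference of 2.93 ± 0.334 (SE) at 24 h (adjusted p = 0.00835) and 2.10 at 48 h (adjusted p = 0.0197). Junb was at -1.91 and -2.03, then 0.27 and 0.42, then -0.55 and -0.05, a difference of 2.32 (adjusted p = 0.00406) and 1.67 (adjusted p = 0.00862). Fosb rose by 1.12 (adjusted p = 0.0114) and 0.68 (adjusted p = 0.0402). The Fosb call at 48 h was lost with the replicate number as a block (adjusted p = 0.0511). The other AP-1 genes of the list were not uniform: Jun differed by 0.18 (adjusted p = 0.533) and -0.28 (adjusted p = 0.343), Fosl2 by -0.26 and -0.58, and Jund by -0.45 and -0.34, and none of these was called.

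Fosl1, which is known from proliferating and invading cells, rose by 0.66 at 24 h (adjusted p = 0.0406) and differed by 0.33 at 48 h (adjusted p = 0.191). Gata3 was at 0.39 and 0.00 in unstimulated cells, -0.85 and -1.30 at 24 h and -1.08 and -1.28 at 48 h, a log2 difference of -1.27 (adjusted p = 0.0228) and -1.37 (adjusted p = 0.0196). Gata2 differed by 0.38 (adjusted p = 0.106) and 0.22 (adjusted p = 0.303) and was not called. The GATA factor that passed the test was lower with CSF-1, and the part of these factors in the proliferin values was not tested.

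These calls too fell with 1 array left out, as they did over all genes, and in some cases every call of the list was lost. The differences of Fos, Junb, Fosb, Fosl1 and Gata3 kept their sign in every alternative. At 24 h the 4 higher calls became 0 without 24 h replicate 2, 1 without unstimulated replicate 2 and 2 without unstimulated replicate 1. At 48 h the 3 became 0 without either unstimulated array and 1 without 24 h replicate 2 or either 48 h array. The lower call, Gata3, was lost at 24 h without either unstimulated array, 24 h replicate 2 or 48 h replicate 1, up to 0.107, and at 48 h without any array but 24 h replicate 1, up to 0.107. Fos lost its 24 h call without unstimulated replicate 2 or 24 h replicate 2, up to 0.0696, and its 48 h call without any array but 24 h replicate 1, up to 0.114. Junb lost its 24 h call without 24 h replicate 2 (adjusted p = 0.0533) and its 48 h call without either unstimulated array, up to 0.0716. Fosb lost its 24 h call without either unstimulated array or 24 h replicate 2, up to 0.0838. Fosb at 48 h and Fosl1 at 24 h lost theirs without any array, up to 0.193 and 0.164, and also after median centring, at 0.0789 and 0.211.

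The genes whose levels went most alike with each of the 3 were found among 12305 genes by Pearson's r over the 6 arrays, as a description. The arrays share a scaling and fall into 3 conditions, so for the proliferin probe and Ghr a high r mostly marks the same steps between conditions. Prlr had overlapping groups, so there r also follows the spread between replicates. For the brightest proliferin probe, A_55_P2004752, they were 1110008P14Rik (r = 0.9968), Clic1 (0.9966), Tm4sf4 (0.996), Chkb and Ccdc82 (both 0.9947). For Ghr, on its brighter probe, they were Sgk2 (0.9977), 5730416F02Rik (0.9953), Hsdl2 (0.9952), Ctsl (0.9951) and Ralyl (0.995). Sgk2, a serum- and glucocorticoid-regulated kinase, differed from unstimulated cells by 2.37 at 24 h and 3.53 at 48 h on the log2 scale. In each case 25 genes had r above 0.99, and 373 and 368 had r above 0.95. For Prlr the nearest were Acox3 (0.9831), 2310005E17Rik (0.9817), Nfasc (0.9766), Vmn1r87 (0.9708) and 2810013P06Rik (0.969), and 12 genes had r above 0.95. Acox3 differed from unstimulated cells by 0.04 at both times.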

How the data were processed

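For each of the 6 arrays the authors deposited scanner output of Agilent Feature Extraction 11.0.1.1, with a background-subtracted, detrended signal intensity per spot, not normalized between arrays, the mean intensity and background of each spot, and 0 or 1 flags, read as other values. Per the labels, RNA was Cyanine 3-labeled total RNA. The authors also deposited log2 values for 44323 probes (GeneSpring GX per the methods, normalization not given in the sources used here). Set against the signals, and allowing each array a constant, 99.81% of array-to-array differences matched within 0.05. The scale is therefore log2, the baseline of each probe is common to the arrays, and their centring rule stays unknown. Column medians ranged from -0.0378 to 0.173, and 6 of the 7 probes described are listed.

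Here, spots flagged as outliers were dropped, spots of a probe averaged, and log2 signal minus the log2 of the 75th percentile over noncontrol spots taken. The brightest probe stood for a gene in the fit, and the members' probes are each given. Of 36028 genes, 24648 were tested, those with both arrays of some group well above background, with limma 3.58.1 (lmFit and eBayes, 2-sided) in R 4.3.3, with the reader data.table, version 1.17.8, over all 6 arrays, with 3 residual and 2.39 prior degrees of freedom and Benjamini-Hochberg adjustment. The number of arrays limits the precision. On simulated data with 200 genes changed by 2 on the log2 scale among 24648, 74.5% (24 h) and 75.5% (48 h) were recovered, with 5 and 10 false calls. The simulated noise was independent, with spreads shuffled among genes and no array effects. These rates therefore check the fit and do not measure the power of this experiment. Replicates correlated across 29332 probes with r between 0.9944 and 0.9954, and 0 probes were identical.

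The members, gene lists and rules were chosen with earlier results of these data known. Named list genes were a fixed set (Jak2, Stat5a, Stat5b, Socs2, Cish, Socs3, Igf1, Igf1r, Igf2r, Gh, Prl, Fos, Fosl1, Jun, Gata2, Gata3) plus the 3 largest changes per list and direction among genes called at both times. Prl3d1, Prl3d2, Prl3b1, Sh2b2, Socs1, Socs6, Ptpn6, Ptpn2, Btrc, Socs7, Pappa, Igfbp7, Ccnd1, Pim1, Bcl2l1, Csn3, Lalba, Wap, Fosl2, Jund, Igfbp2 and the markers were named after their values were seen. The alternatives were other scalings and background corrections, the authors' log2 values, other filters and probe rules, an intensity trend, fewer arrays, the methods' t-test and thresholds, the replicate number as a block and each array left out. Some members of the lists are counted but not reported here by name.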

Additional observations from a re-analysis of the deposited data

Results flagged for a closer look

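For Igfbp2, a binding protein of insulin-like growth factors, and Csn3, the gene of kappa-casein, all 24 h arrays lay above and all 48 h arrays below both unstimulated arrays. Both were found by searching the 68 tested pathway genes for opposite shifts at 24 h and 48 h. With 2 arrays a group some such orders arise by chance, and their share over all genes was not counted. Igfbp2 differed from unstimulated cells by 0.50 at 24 h and -0.22 at 48 h on the log2 scale, and limma's comparison of 48 h with 24 h gave an adjusted p of 0.178. Csn3 differed by 0.12 and -0.09, with an adjusted p of 0.483 in that comparison. Neither gene was called in any comparison.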

How the results depend on the processing

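The proliferin and Ghr probes kept their direction under every scaling, the authors' log2 values and with any array left out. The median difference of the proliferin probes was 1.76 at 24 h and 1.87 at 48 h; it was 1.48 at 24 h after median centring, and between 1.56 and 1.97 at 24 h and between 1.67 and 2.07 at 48 h with 1 array left out. Of the single-gene and single-probe values, 869 kept their side of the threshold or their spread, 128 lost a call, 4 gained one, all of them Igf2r at 24 h, and 25 moved by more than the replicate spread. Normexp with an offset of 50 gave smaller differences for dim genes, Stat5a at 24 h reaching 2.41 and Fos 1.56 at their lowest. Genes called at 24 h were 3454, and 1319 without a filter on dim probes, 0 by the methods' t-test after adjustment (5403 unadjusted), 1894 at the study's thresholds with limma's p (1352 with the t-test's) and between 423 (without 24 h replicate 2) and 2362 with 1 array left out. At 48 h they were 3441, and 870 without the filter, 5477 with an intensity trend, 2116 from only the 4 arrays compared, 0 by the t-test (5485 unadjusted), 1598 at the study's thresholds (1162 with the t-test's p) and between 656 (without 48 h replicate 1) and 1930 with 1 array left out. Between 48 h and 24 h limma called 0, and 6 after quantile normalization, 5 after median centring, 210 and 314 after normexp with the percentile shift or quantile normalization, 5 with all 6 arrays well above background, 195 with an intensity trend, 560 at the study's thresholds (251 with the t-test's p) and between 0 and 55 (without 48 h replicate 2) with 1 array left out. Of the listed pathway genes, the t-test called 0 at either time, 11 were called at 48 h without the filter, and between 5 and 20 at 24 h and between 6 and 15 at 48 h with 1 array left out. Fewer arrays leave fewer degrees of freedom, and the filter and the tests change how many genes are tested and how; for the other shifts the cause was not tested. Replicate numbers are shared across groups. The deviations of replicate 1 from replicate 2 correlated across probes between groups at 0.207, 0.165 and 0.249, but no source states that the numbers mark the same experiment. With the replicate number as a block, 3800 genes were called at 24 h, 3967 at 48 h and 0 between the times, with 27 and 23 pathway genes; the named calls that changed were Fosb at 48 h (adjusted p = 0.0511) and Igf2r at 24 h (adjusted p = 0.0395). Dim probes, Prlr's further probe among them, limit what can be said of genes near background.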
